A study of Mus musculus with 7 samples.

Results

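Aminoacyl-tRNA synthetases join each amino acid to its transfer RNA (tRNA), the step that sets the genetic code during protein synthesis. The 36 genes described here are 20 enzymes of the cytosol and 16 enzymes of the mitochondrion, whose symbols end in 2. They were chosen by symbol: each row of the deposited table was matched to GENCODE mouse release M21 by its Ensembl identifier. Of the 55855 genes in the table, 36 carried these symbols, so every one of the 36 enzymes was found, and each had the mean level of at least 1 FPKM required for testing. Coordinates are those of GRCm38.

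RNA came from hematopoietic stem cells (HSCs) of the bone marrow of mice aged 2 months. The Fth1-deleted group (4 libraries, genotype Fth1△/△) carried the deleted allele of ferritin heavy chain 1, the subunit of the iron store ferritin that oxidises iron, and the control group (3 libraries, genotype Fth1fl/fl) carried the floxed gene. The series text places the deletion in the hematopoietic system and gives the role of iron in HSCs as its question, whereas the Cre driver, the sort markers, the sex of the mice and the exons removed are not stated in the labels. Whether the libraries of a group stem from different animals is not stated, so p values measure the spread between libraries, which may be in part technical. A library is named below by its group and replicate number.

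In animal cells the cytosolic and mitochondrial enzymes are all encoded in the nucleus. Most amino acids have a gene for each compartment, while Gars (glycine) and Kars (lysine) each serve both. Several cytosolic enzymes sit together on scaffold proteins in a multi-synthetase complex. Uncharged tRNA activates the kinase Gcn2, and the transcription factor ATF4 that follows is known to raise many cytosolic synthetase genes together with genes of amino acid synthesis and uptake. HSCs are known for a low rate of protein synthesis.

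Levels are in FPKM, which counts reads relative to gene length and to the reads of the library. The length that matched the deposited values was the mean length of a gene's annotated transcripts. Levels of different genes, and their ranks and ratios, therefore depend in part on that annotation. A difference is the mean log2(FPKM + 1) of Fth1-deleted libraries minus that of controls, a scale that understates the change of low genes. They were tested with limma over 13948 genes, with Benjamini-Hochberg adjusted p values and a threshold of 0.05. Counted reads per library were between 12058392 and 15453168. Fth1 itself had 202, 333, 358 and 114 FPKM in Fth1-deleted libraries 1 to 4, against 552, 659 and 638 FPKM in control libraries 1 to 3. The groups did not overlap, and the mean of the Fth1-deleted libraries was 40.8% of that of the controls (exact permutation test, two-sided, p = 0.0286, the smallest the design allows). In the limma fit used for the enzymes, Fth1 had a log2 difference of -1.42 (SE 0.33, limma adjusted p = 0.193). The deleted gene thus did not pass the threshold in that fit. Control 2 stood apart from the other controls in ribosomal RNA, which made up 1.21%, 1.29%, 1.33% and 1.34% of reads in Fth1-deleted libraries 1 to 4, against 0.0253%, 0.984% and 0.0140% in control libraries 1 to 3. Reads of Y-linked genes were found in Fth1-deleted libraries 1 to 3 and in control 2, and were 0 in Fth1-deleted 4 and in controls 1 and 3. Each group therefore mixed libraries with and without male cells, in unequal shares. Of 17 HSC markers tested, 1 fell and 16 did not pass the test (median log2 difference -0.41), and their summed level was 1113 to 1560 FPKM in Fth1-deleted libraries and 1324 to 2013 FPKM in control libraries.

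None of the 36 synthetase genes passed the threshold, in a comparison where 0.0574% of all genes tested did (0.0287% higher and 0.0287% lower). At an unadjusted p under 0.05, 4 were higher in Fth1-deleted HSCs (Lars2, Rars2, Mars and Aars) and 1 was lower (Nars), or 5 of 36 beside 9.83% of all genes tested (4.9% higher and 4.93% lower). The difference was above 0 in 27 of the 36 and below 0 in 9, while it was above 0 in 48.7% of all genes. Their median difference was 0.20, beside -0.02 for all genes tested. The values of the Fth1-deleted and control libraries did not overlap for 5 enzymes. Of these, 4 were higher in every Fth1-deleted library (Mars, Aars, Rars and Lars2), beside 4.1% of all genes, and Nars was lower in every one, beside 5.55% of all genes. Most of the family therefore lay slightly above the controls, with no gene separated beyond the spread between libraries by the adjusted test.

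**Figure D1:**
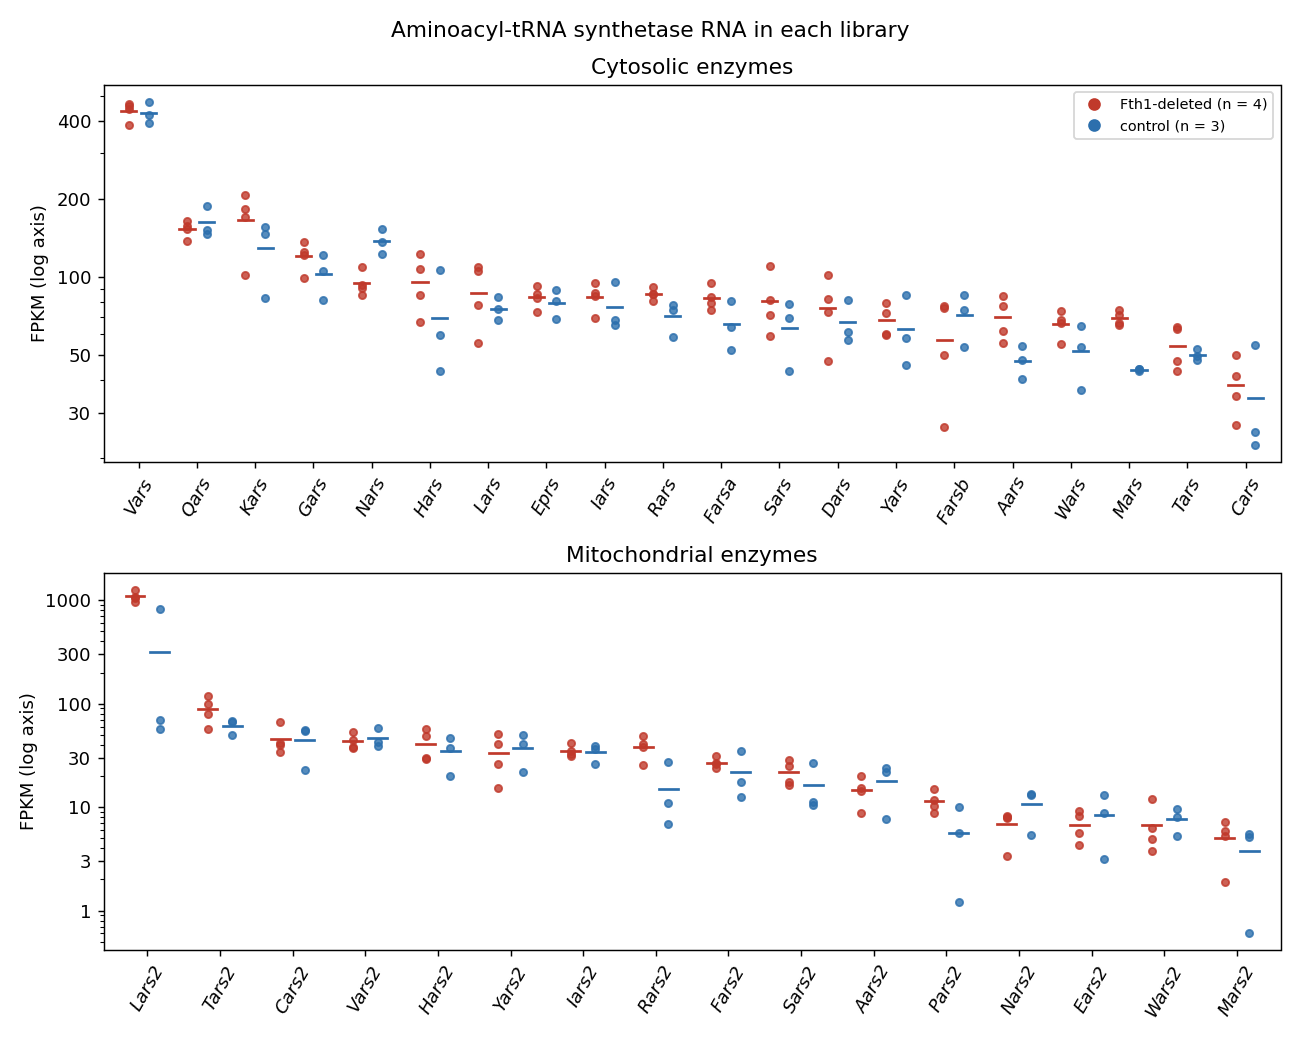
FPKM of each synthetase gene in each library on a log axis, cytosolic enzymes above and mitochondrial enzymes below, ordered by mean level. Red points are Fth1-deleted libraries (n = 4), blue points are control libraries (n = 3), and short lines are group means. Vars leads the cytosolic enzymes with a mean of 434 FPKM, and Lars2 shows 2 control libraries far below the other 5 libraries.

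The cytosolic enzymes were the more evenly expressed class. Their mean levels over the 7 libraries ran between 36.5 FPKM (Cars, cysteine) and 434 FPKM (Vars, valine), with a median of 77.6 FPKM. Each was counted with 303 to 9543 reads per library. The median coefficient of variation between libraries was 13.3% in Fth1-deleted HSCs and 19.5% in controls, below the 32.8% and 38.1% of all genes tested in the same groups. Of the 20 genes, 17 had a difference above 0 and 3 below, with a median of 0.20. The smallest adjusted p among them was 0.348 (limma).

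Mars, the methionine enzyme on chromosome 10 (127296221 to 127311786, minus strand), had the smallest p of the cytosolic genes. It had 71.5, 65.1, 74.4 and 66.3 FPKM in Fth1-deleted libraries 1 to 4, against 44.1, 43.3 and 44.0 FPKM in control libraries 1 to 3. The groups were well separated and the controls nearly identical. The means were 69.3 ± 4.37 FPKM (SD, n = 4) and 43.8 ± 0.425 FPKM (SD, n = 3), a log2 difference of 0.65 (SE 0.20, 95% interval 0.21 to 1.09, limma adjusted p = 0.348). The last 68 bases of its transcript overlap Ddit3, which encodes the stress factor CHOP read from the other strand. Whether the authors counted by strand is not given in the sources used here. Ddit3 had 19.7, 17.5, 15.7 and 15.8 FPKM in Fth1-deleted libraries, against 16.5, 11.7 and 20.5 FPKM in control libraries, a log2 difference of 0.10 (SE 0.34).

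Aars, the alanine enzyme on chromosome 8 (111033144 to 111057664, plus strand), had 84.7, 61.9, 55.8 and 77.3 FPKM in Fth1-deleted libraries, against 54.1, 40.5 and 47.7 FPKM in control libraries. Every Fth1-deleted value lay above every control value, though Fth1-deleted 3 and control 1 were close. The log2 difference was 0.54 (SE 0.23, 95% interval 0.03 to 1.05, limma adjusted p = 0.483). The transcript Aars-201 holds all 1326 bases of the gene Exosc6 on the same strand. Exosc6 had 0 FPKM in every library, and how reads there were counted is not given in the sources used here.

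Rars, the arginine enzyme, had 86.3, 80.5, 86.3 and 91.5 FPKM in Fth1-deleted libraries, against 58.8, 78.1 and 74.6 FPKM in control libraries. The nearest values of the groups, Fth1-deleted 2 and control 2, were close together. On the log2 scale the difference was 0.29 with an SE of 0.20 (limma adjusted p = 0.660).

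Nars, the asparagine enzyme on chromosome 18, went the other way. It had 92.8, 85.1, 90.4 and 109 FPKM in Fth1-deleted libraries, against 154, 123 and 136 FPKM in control libraries. All 4 Fth1-deleted libraries were below all 3 controls. The log2 difference was -0.54 (SE 0.19, 95% interval -0.94 to -0.13, limma adjusted p = 0.390), so that the methionine and asparagine enzymes had differences of similar size in opposite directions, both short of the threshold.

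The most abundant cytosolic enzymes differed little. Vars had 443, 386, 456 and 464 FPKM in Fth1-deleted libraries, against 473, 421 and 393 FPKM in control libraries, and the log2 difference was 0.03 (SE 0.15, 95% interval -0.31 to 0.36), or -0.092 after quantile normalization and -0.049 after TPM rescaling. Qars, the glutamine enzyme, had 138, 153, 157 and 164 FPKM in Fth1-deleted libraries, against 188, 151 and 147 FPKM in control libraries, with a log2 difference of -0.08 (SE 0.17, 95% interval -0.46 to 0.30). Both intervals include 0. The lowest library of Vars was far above the highest of any other cytosolic enzyme, whereas the range of Kars, the third in mean level, took in values of Qars, Gars and Nars.

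Of the genes that serve both compartments, Kars was spread widely, with coefficients of variation of 27.2% in Fth1-deleted HSCs and 31.0% in controls. Those of Gars, 12.8% and 19.4%, were near the cytosolic medians. Kars had 182, 102, 170 and 207 FPKM in Fth1-deleted libraries, against 157, 83.1 and 147 FPKM in control libraries, a log2 difference of 0.36 (SE 0.28, 95% interval -0.25 to 0.98). Gars had 122, 99.2, 125 and 136 FPKM in Fth1-deleted libraries, against 121, 81.5 and 106 FPKM in control libraries, a log2 difference of 0.24 (SE 0.20, 95% interval -0.21 to 0.68). Replicate 2 was the lowest library of both genes in either group, and the groups overlapped. The Kars difference was 0.077 without control 2, 0.24 without Fth1-deleted 4, 0.58 without Fth1-deleted 2 and 0.98 with the ribosomal RNA covariate. The Gars difference was 0.082 without control 2, 0.36 without control 1 and 0.56 with that covariate.

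The 13 other cytosolic enzymes, Rars among them, had log2 differences between -0.40 and 0.51, of which 12 were above 0, with limma adjusted p values of 0.625 to 0.920. The highest was Hars (histidine, 0.51) and the lowest Farsb (-0.40), the beta subunit of the phenylalanine enzyme. Its partner Farsa, the alpha subunit, had a difference of 0.35. Farsb ranged over 26.4 to 77.3 FPKM in Fth1-deleted libraries and 53.6 to 85.2 FPKM in control libraries, so the opposite signs of the subunits came with overlapping groups. Hars and its mitochondrial counterpart Hars2 lie head to head and share 195 bases of transcript on opposite strands, so reads there cannot be assigned with certainty.

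Divided by known biochemistry, the cytosolic enzymes showed similar medians. The 8 enzymes of the multi-synthetase complex had 7 differences above 0 and a median of 0.15, and the 12 free enzymes had 10 above 0 and a median of 0.24. The synthetases fall into class I and class II, which have unrelated catalytic folds. Cytosolic class I enzymes had 8 of 9 differences above 0 (median 0.16) and class II enzymes 8 of 10 (median 0.29), and Eprs, a fusion of a class I and a class II enzyme, had 0.08. Of the 11 cytosolic genes listed as ATF4 targets, 10 had differences above 0 (median 0.23), against 7 of the 9 others (median 0.16).

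**Figure D2:**
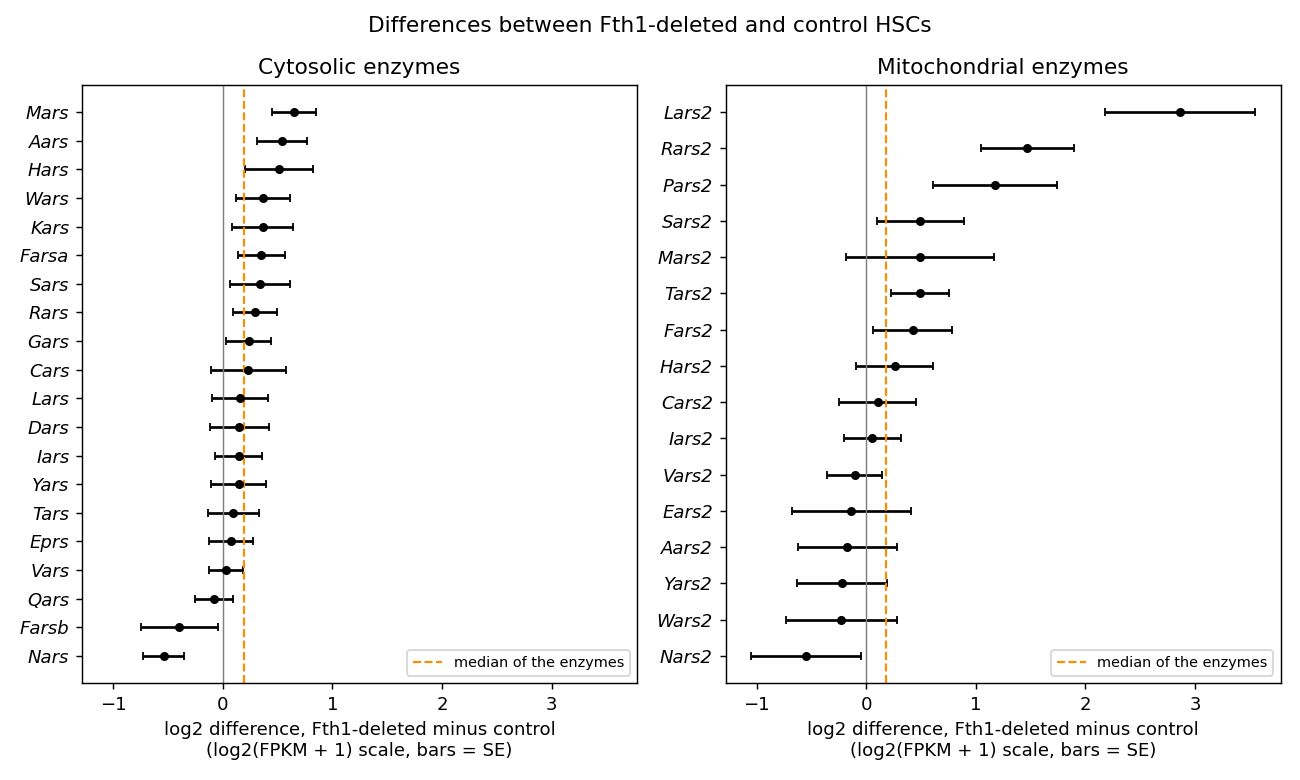
Log2 difference of each synthetase gene, Fth1-deleted minus control, with its standard error as a bar, for cytosolic enzymes on the left and mitochondrial enzymes on the right. The dashed line is the median of each class, 0.20 and 0.18. The cytosolic values stay between -0.54 and 0.65, while Lars2, Rars2 and Pars2 stand out on the right.

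ATF4 and C/EBP factors bind a composite element whose letters were searched here as TGATGNAA on both strands, in RefSeq promoters that run from 250 bases before to 50 bases after each gene start (GRCm38.p6). Promoters were matched for 27 of the 36 genes, 13 cytosolic and 14 mitochondrial. The element occurred in 4.51% of all 27025 promoters. It occurred in 5 of the 13 cytosolic promoters (Aars, Gars, Iars, Tars and Yars) and in 0 of the 14 mitochondrial ones. The log2 differences of those 5 genes were all above 0, between 0.10 (Tars) and 0.54 (Aars), with a median of 0.15. Among all 20 cytosolic genes, 17 were above 0 and the median was 0.20, so genes with the element did not stand above their class. The 120 bases before the RefSeq start are shown for the genes with a match in that stretch, 5′ to 3′ on the strand of the gene, with the match in capitals as it reads there, which is the reverse complement of the searched letters. The Aars window is chr8:111033722-111033841 (plus strand), the Gars window chr6:55037881-55038000 (plus strand) and the Tars window chr15:11399659-11399778 (minus strand).
Aars: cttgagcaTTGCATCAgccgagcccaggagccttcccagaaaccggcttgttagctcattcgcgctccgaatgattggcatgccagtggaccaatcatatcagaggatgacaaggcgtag
Gars: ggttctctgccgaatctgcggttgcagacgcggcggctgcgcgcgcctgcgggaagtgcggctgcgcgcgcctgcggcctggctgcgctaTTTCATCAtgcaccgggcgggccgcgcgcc
Tars: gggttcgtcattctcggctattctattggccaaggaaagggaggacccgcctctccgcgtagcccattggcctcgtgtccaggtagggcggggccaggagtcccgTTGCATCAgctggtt
The match begins 112 bases before the start in Aars, 30 in Gars and 15 in Tars, so its distance from the start is not shared. In Iars and Yars it lies after the start, as does another match in Aars. The 3 genes shown differ in their values as well: Aars was higher in every Fth1-deleted library, whereas Gars and Tars overlapped between the groups. Other elements were searched in the same way on both strands. CCGGAAG, bound by ETS factors such as GABPA, was found in 9 of 27 synthetase promoters (33.3%) beside 9.93% of all promoters, 5 cytosolic and 4 mitochondrial genes. CACGTG, the E-box of Myc and Max, was found in 5 of 27 (Aars, Ears2, Farsb, Iars and Tars) beside 8.09% of all. TGCGCATGC, an NRF1 element, was found in Rars2 beside 1.72% of all. TGACNNNGC, the element of the antioxidant factor NRF2, was found in 6 of 27 (Aars, Aars2, Iars, Lars2, Mars and Nars2) beside 14.0% of all, and CCAAT in 13 of 27 beside 41.1%. No match of TGATGNAA in these 5 promoters shared a base with a match of another searched element. These matches describe letters and show no binding.

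The mitochondrial enzymes were expressed at lower and more scattered levels. Their mean levels over the 7 libraries ran between 4.49 FPKM (Mars2) and 759 FPKM (Lars2), with a median of 26.5 FPKM. They had 27 to 37340 reads per gene and library. Mars2 was lowest in FPKM with a mean transcript length of 11294 bases and 83 to 1047 reads per library. Pars2, with a mean transcript length of 1596 bases, had 27 to 367 reads. The median coefficient of variation was 31.0% in Fth1-deleted HSCs and 45.9% in controls. Of the 16 genes, 10 had a difference above 0 and 6 below, with a median of 0.18, and 2 were higher at an unadjusted p under 0.05 (Lars2 and Rars2, beside 4.9% of all genes tested) with none lower (beside 4.93%). The smallest adjusted p was 0.211 (limma).

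Lars2, the mitochondrial leucine enzyme on chromosome 9 (123366927 to 123462666, plus strand), showed the largest difference of the 36. It had 965, 1084, 1061 and 1258 FPKM in Fth1-deleted libraries 1 to 4, against 56.3, 821 and 69.6 FPKM in control libraries 1 to 3. Control 2 was somewhat below the Fth1-deleted libraries, and the other controls were far below. The means were 1092 ± 122 FPKM (SD, n = 4) and 316 ± 438 FPKM (SD, n = 3), a log2 difference of 2.87 (SE 0.68, 95% interval 1.37 to 4.36, limma adjusted p = 0.211). Without control 2 the difference was 4.10 (SE 0.18) and passed the threshold (limma adjusted p = 2e-06). It was the one synthetase call under any library left out. In that fit both remaining controls are low in ribosomal RNA and every Fth1-deleted library is rich in it. Genotype and ribosomal RNA therefore cannot be told apart there.

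Lars2 RNA moved with ribosomal RNA from library to library. CT010467.1, the ribosomal RNA gene with most of those reads, had 9476, 10049, 10382 and 10465 FPKM in Fth1-deleted libraries, against 191, 7670 and 110 FPKM in control libraries. Control 2 was again below the Fth1-deleted libraries and far above the other controls. Lars2 per 1000 FPKM of CT010467.1 was 102, 108, 102 and 120 FPKM in Fth1-deleted libraries, against 295, 107 and 636 FPKM in control libraries, so it was nearly constant in the 5 libraries rich in ribosomal RNA. With the ribosomal RNA share as a covariate the log2 difference of Lars2 was 0.21 (SE 0.31, limma adjusted p = 0.802). Among the 5 libraries with a share over 0.5%, which leave 1 control, it was 0.40 (SE 0.18, limma adjusted p = 0.389). The libraries low in ribosomal RNA are 2 of the 3 controls, so that its part in the Lars2 values cannot be fully told apart from that of genotype.

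The Lars2 transcript has a stretch of 72 bases, at positions 3278 to 3349 of the 3894-base transcript Lars2-201, that is 98.6% identical to Gm15564, a non-coding RNA of 402 bases on chromosome 16. The stretch lies in the 3′ untranslated region. Gm15564 had 56.7, 28.4, 43.7 and 40.9 FPKM in Fth1-deleted libraries, against 0.889, 51.8 and 1.71 FPKM in control libraries, so that controls 1 and 3 were again far below the other 5 libraries. Its log2 difference was 2.71 (SE 0.89, limma adjusted p = 0.377). How reads that fit both places were counted is not given in the sources used here, so the Lars2 count is uncertain. The mitochondrial ribosomal RNA gene mt-Rnr1 did not show the same low controls: it had 950, 784, 646 and 1044 FPKM in Fth1-deleted libraries, against 1685, 458 and 1052 FPKM in control libraries.

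**Figure D3:**
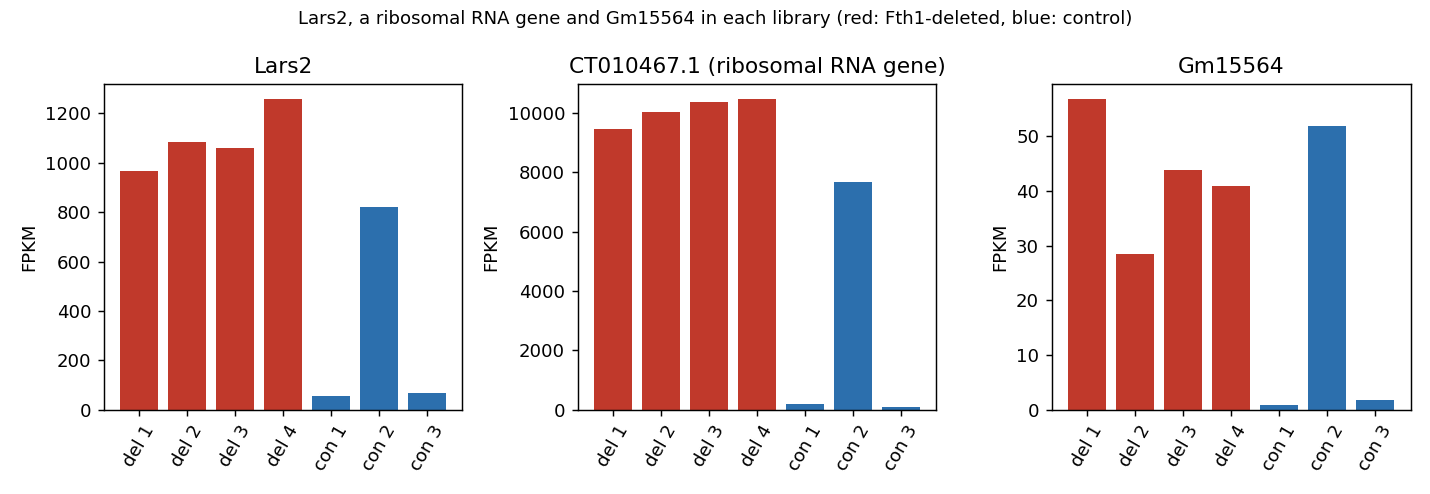
FPKM of Lars2, the ribosomal RNA gene CT010467.1 and the non-coding RNA Gm15564 in each library (del, Fth1-deleted; con, control; bars start at 0). Controls 1 and 3 are near 0 on every axis. Control 2 is within the Fth1-deleted range for Gm15564 and below it for Lars2 and CT010467.1, though far above the other controls.

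Rars2, the mitochondrial arginine enzyme on chromosome 4 (34614957 to 34660167, plus strand), had 38.1, 25.8, 48.9 and 40.4 FPKM in Fth1-deleted libraries, against 11, 6.85 and 27.2 FPKM in control libraries. Control 3 lay just above Fth1-deleted 2, and the other controls were lower than every Fth1-deleted library. The log2 difference was 1.47 (SE 0.42, 95% interval 0.55 to 2.39, limma adjusted p = 0.302), and it was 2.46 with the ribosomal RNA covariate. Pars2, the mitochondrial proline enzyme on chromosome 4, had 14.9, 11.7, 8.86 and 10.2 FPKM in Fth1-deleted libraries, against 1.22, 5.58 and 9.92 FPKM in control libraries. Its groups overlapped through control 3, and the log2 difference was 1.17 (SE 0.57, 95% interval -0.06 to 2.41, limma adjusted p = 0.536). Without control 1, its lowest library, the difference was 0.53.

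Apart from Lars2, the most abundant mitochondrial enzymes were Tars2 (threonine) and Cars2 (cysteine). Tars2 had 80.4, 56.5, 98.5 and 120 FPKM in Fth1-deleted libraries, against 66.3, 67.5 and 49.8 FPKM in control libraries, a log2 difference of 0.49 (SE 0.27, 95% interval -0.09 to 1.07), or 0.28 with the ribosomal RNA covariate. Cars2 had 41.4, 67.0, 39.7 and 34.5 FPKM in Fth1-deleted libraries, against 55.4, 54.5 and 22.8 FPKM in control libraries, a log2 difference of 0.10 (SE 0.35), or -0.43 with that covariate and -0.31 without control 3. Both genes overlapped between the groups. Cars2 shares 217 bases with the neighbouring gene Naxd.

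The 11 other mitochondrial enzymes had log2 differences between -0.55 (Nars2, asparagine) and 0.49, of which 5 were above 0, with limma adjusted p values of 0.711 to 0.957. The 2 asparagine enzymes were thus the lowest of their classes, Nars at -0.54 and Nars2 at -0.55, though Nars2 had 7.78, 3.34, 8.05 and 8.16 FPKM in Fth1-deleted libraries, against 5.43, 13.1 and 13.5 FPKM in control libraries, and overlapped. Class II mitochondrial enzymes had 5 of 7 differences above 0 (median 0.42) and class I enzymes 5 of 9 (median 0.06). Iars2 shares 2034 bases of transcript with Rab3gap2, Fars2 shares 115 with Lyrm4 and Ears2 shares 89 with Ubfd1, so their counts are uncertain where the strand was not used.

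Set side by side, the classes had medians of 0.20 (cytosolic) and 0.18 (mitochondrial), and 0.10 for the 15 mitochondrial enzymes without Lars2, of which 9 were above 0. With the ribosomal RNA covariate the mitochondrial median was -0.083, and among the 5 libraries rich in ribosomal RNA it was -0.027. The cytosolic median stayed above 0 in both. The summed level of the 20 cytosolic enzymes was 2189, 1781, 1980 and 2328 FPKM in Fth1-deleted libraries, against 2136, 1678 and 1854 FPKM in control libraries. Those sums overlapped between the groups, and replicate 2 was the lowest in both. The 16 mitochondrial enzymes summed to 1372, 1468, 1519 and 1711 FPKM in Fth1-deleted libraries, against 427, 1199 and 416 FPKM in control libraries. Most of that sum was 1 gene: Lars2 made up 69.9% to 73.8% of it in Fth1-deleted libraries, against 13.2%, 68.5% and 16.7% in control libraries 1 to 3. Without Lars2 the sums were 407, 384, 457 and 453 FPKM in Fth1-deleted libraries, against 371, 378 and 347 FPKM in control libraries. These still did not overlap, with means of 426 ± 35.8 FPKM (SD, n = 4) and 365 ± 16.3 FPKM (SD, n = 3), and Fth1-deleted 2 was close to control 2. The FPKM of all genes also summed higher, to 762953 to 832377 in Fth1-deleted libraries and 740351 to 757010 in control libraries. Relative to these totals, control 2 (378 of 740351 FPKM) was above Fth1-deleted 2 (384 of 763166 FPKM). The small gap between the groups therefore did not hold on that scale. The cytosolic sum over the mitochondrial sum without Lars2 was 4.87 ± 0.474 in Fth1-deleted HSCs and 5.19 ± 0.677 in controls, a difference smaller than either SD. In bulk RNA, fewer cells of a type and less RNA per cell cannot be told apart.

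**Figure D4:**
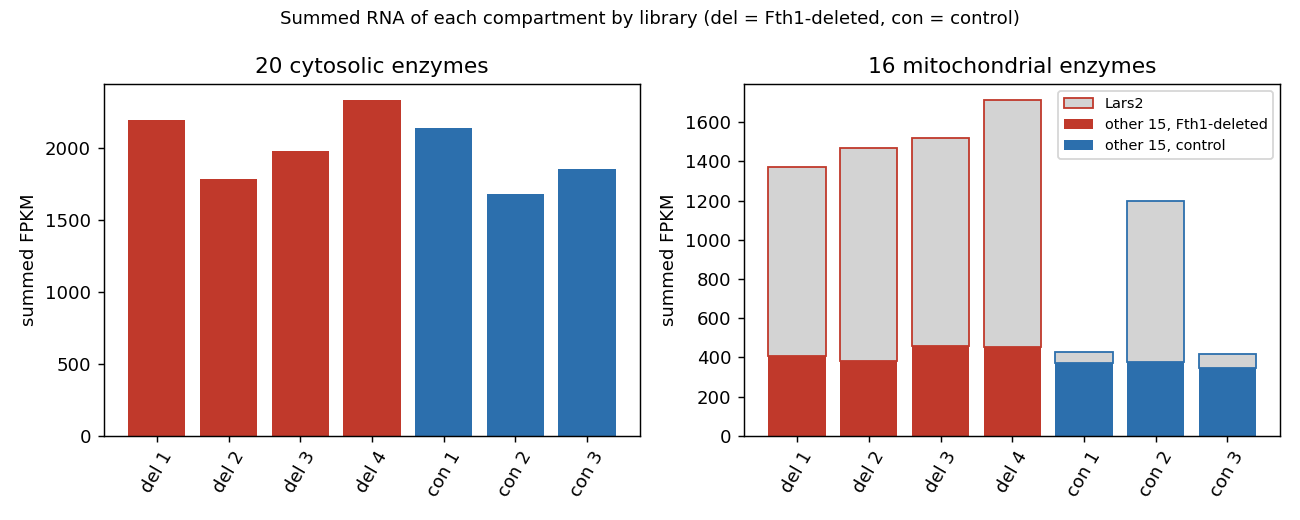
Summed FPKM per library (del, Fth1-deleted; con, control) of the 20 cytosolic enzymes on the left and of the 16 mitochondrial enzymes on the right, where the grey part of each bar is Lars2. Without the grey part the mitochondrial sums are 384 to 457 in Fth1-deleted libraries and 347 to 378 in controls.

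Cytosolic genes were paired with the mitochondrial gene of the same symbol ending in 2, which gave 13 pairs. Phenylalanine (Farsa and Farsb with Fars2), glutamate (Eprs with Ears2) and proline (Eprs with Pars2) also have enzymes of both classes among the 36. They were not paired, as their symbols differ. The ratios below are of FPKM and so depend on annotated transcript lengths as well. The cytosolic member had the higher mean level in 10 of 13 pairs in Fth1-deleted HSCs and in 10 of 13 in controls, with a median ratio of 2.40 in Fth1-deleted HSCs and 2.67 in controls. The exceptions in both groups were cysteine (Cars over Cars2, 0.837 in Fth1-deleted and 0.773 in control), threonine (0.612 in Fth1-deleted and 0.817 in control) and leucine (0.0797 in Fth1-deleted and 0.239 in control). The leucine ratio of the controls rested on control 2, where Lars had 74.9 FPKM and Lars2 821 FPKM. Lars was above Lars2 in control 1 (83.4 and 56.3 FPKM) and level with it in control 3 (68.4 and 69.6 FPKM). The asparagine pair had one of the wider gaps, a ratio of 13.8 in Fth1-deleted HSCs and 12.8 in controls. For arginine the ratio was 2.25 in Fth1-deleted HSCs and 4.70 in controls, with the larger log2 difference in Rars2.

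No other tested gene of the charging pathway lists passed the threshold either. The 3 scaffold proteins of the multi-synthetase complex had differences above 0 with a median of 0.39. Aimp1 had 79.1, 96.0, 58.7 and 54.0 FPKM in Fth1-deleted libraries, against 58.9, 38.8 and 65.5 FPKM in control libraries (log2 difference 0.39, SE 0.27). Eef1e1, also known as AIMP3, had a log2 difference of 0.59 (SE 0.43) and Aimp2 of 0.07 (SE 0.49), and each of the 3 overlapped between groups. Genes that edit or repair charged tRNA had 5 of 7 differences above 0 (median 0.45). Mammalian mitochondria make glutamine tRNA by amidation of glutamate tRNA. The subunits of that amidotransferase, listed with the formyltransferase Mtfmt, had 3 of 4 differences above 0 (median 0.36). Among them Qrsl1, its catalytic subunit, had 19.6, 13, 21.8 and 11.8 FPKM in Fth1-deleted libraries, against 10.03, 5.78 and 4.45 FPKM in control libraries. Those groups did not overlap (log2 difference 1.2, SE 0.43, limma adjusted p = 0.414). Selenocysteine is made on its tRNA from serine, and of the 4 genes of that route 1 had a difference above 0 (median -0.16). This was Sephs2, which makes selenophosphate, with 39.1, 27.0, 25.5 and 32.2 FPKM in Fth1-deleted libraries, against 12.3, 14.0 and 15.5 FPKM in control libraries. It was higher in every Fth1-deleted library (log2 difference 1.08, SE 0.30, limma adjusted p = 0.285).

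Elongation factors bring charged tRNA to the ribosome and move it along. Cytosolic elongation factors had 3 of 7 differences above 0 (median -0.02), and Eef2, the translocation factor, had 3538, 3663, 3655 and 3761 FPKM in Fth1-deleted libraries, against 4387, 4107 and 4900 FPKM in control libraries. Every Fth1-deleted value of Eef2 was below every control value (log2 difference -0.29, SE 0.15, limma adjusted p = 0.579). Mitochondrial translation factors had 8 of 9 differences above 0 (median 0.39). Tsfm, the exchange factor of the mitochondrial elongation factor Tufm, had 54.8, 65.8, 59.8 and 44.0 FPKM in Fth1-deleted libraries, against 43.5, 43.4 and 34.6 FPKM in control libraries (log2 difference 0.45, SE 0.24, limma adjusted p = 0.576). Genes of tRNA transcription by RNA polymerase III had 9 differences above 0 and 10 below (median -0.02).

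Genes of amino acid sensing and of the ATF4 response did not share one direction. Sensing genes had 6 of 9 differences above 0 (median 0.07), led by Eif2s1, the alpha subunit of the initiation factor that Gcn2 phosphorylates. Eif2s1 had 74.8, 57.8, 74.5 and 80.4 FPKM in Fth1-deleted libraries, against 41.2, 41.8 and 54.0 FPKM in control libraries (log2 difference 0.64, SE 0.22, limma adjusted p = 0.392). Atf4 RNA had 105, 149, 127 and 123 FPKM in Fth1-deleted libraries, against 106, 123 and 98.6 FPKM in control libraries, and overlapped (log2 difference 0.20). Of 17 ATF4 targets tested outside the synthetases, 11 had differences above 0 and 6 below (median 0.28), none past the threshold. At an unadjusted p under 0.05, 2 of 17 were higher and 4 lower, beside 4.9% and 4.93% of all genes tested. Asns, which makes asparagine, was among the lower ones, with 17.2, 7.31, 9.43 and 29.0 FPKM in Fth1-deleted libraries, against 33.1, 31.9 and 22.3 FPKM in control libraries. Its groups overlapped through Fth1-deleted 4 and control 3 (log2 difference -1.01). Nupr1, a stress-induced nuclear protein, had 18.3, 36.1, 24.4 and 13 FPKM in Fth1-deleted libraries, against 76.2, 48.9 and 44.8 FPKM in control libraries, without overlap (log2 difference -1.32, SE 0.35, limma adjusted p = 0.271). Trib3, a pseudokinase that restrains ATF4, overlapped between the groups (log2 difference -1.54, SE 0.54, limma adjusted p = 0.400). Mthfd2, a mitochondrial enzyme of one-carbon metabolism, had a difference in the opposite direction, with 56.5, 19.6, 58.4 and 46.2 FPKM in Fth1-deleted libraries, against 23.2, 16.6 and 3.65 FPKM in control libraries (log2 difference 1.76, SE 0.55, limma adjusted p = 0.345).

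Amino acid transporters had 8 of 13 differences above 0 (median 0.23). Without overlap between the groups, 3 of the 13 were lower (Slc7a7, Slc6a6 and Slc36a4), beside 5.55% of all genes tested. In the same way 1 was higher (Slc1a4), beside 4.1% of all genes tested. Slc6a6 had a log2 difference of -0.42 (SE 0.18, limma adjusted p = 0.485). Slc7a7, a subunit of a cationic amino acid exchanger, had 6.40, 2.29, 2.57 and 7.34 FPKM in Fth1-deleted libraries, against 14.3, 12.4 and 27.2 FPKM in control libraries. It was lower in every Fth1-deleted library (log2 difference -1.79, SE 0.52, limma adjusted p = 0.306). Slc1a5, a glutamine transporter, had 274, 239, 286 and 224 FPKM in Fth1-deleted libraries, against 246, 168 and 146 FPKM in control libraries (log2 difference 0.48, SE 0.20, limma adjusted p = 0.477).

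Among growth genes, ribosome biogenesis and S phase and mitosis had medians above those of the synthetases, and Myc with its partners had a lower one. Myc had 244, 213, 202 and 232 FPKM in Fth1-deleted libraries, against 250, 186 and 166 FPKM in control libraries, and overlapped (log2 difference 0.17, SE 0.18), and Myc with its partners had a median of 0.07 over 9 genes. All 20 ribosome biogenesis genes had differences above 0 (median 0.34), and none passed the threshold. Nop58, a core protein of the small nucleolar particles that guide ribosomal RNA methylation, was higher in every Fth1-deleted library (log2 difference 0.62, SE 0.17, limma adjusted p = 0.289). All 20 genes of S phase and mitosis had differences above 0 as well (median 0.47), and none passed. Rrm2, a subunit of ribonucleotide reductase that carries an iron centre, had 124, 113, 138 and 147 FPKM in Fth1-deleted libraries, against 72.5, 56.0 and 54.8 FPKM in control libraries (log2 difference 1.09, SE 0.20, limma adjusted p = 0.0918). Whether the synthetase values go with these lists across libraries was not tested.

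**Figure D5:**
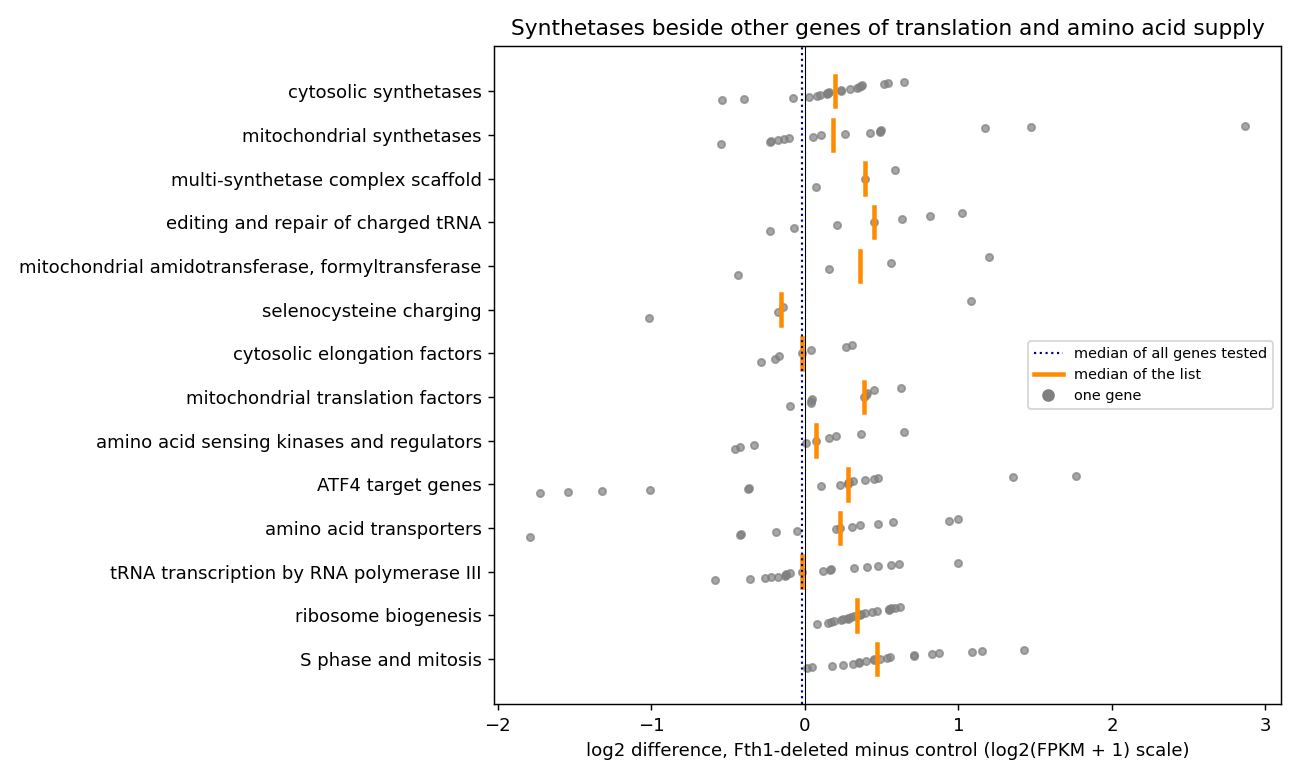
Log2 difference, Fth1-deleted minus control, of each tested gene in the synthetase classes and in lists of related genes. Grey points are genes, orange bars are list medians and the dotted line is the median of all 13948 genes tested, -0.02. The medians of the synthetases, 0.20 and 0.18, lie below those of ribosome biogenesis (0.34) and S phase and mitosis (0.47).

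Markers of other cell types were summed in each library. Macrophage markers summed to 162, 63.6, 91.1 and 72.2 FPKM in Fth1-deleted libraries, against 47.9, 38.6 and 22.9 FPKM in control libraries, with 7 of 8 tested and all 7 differences above 0. B cell markers summed to 54.4, 24.2, 66.0 and 87.8 FPKM in Fth1-deleted libraries, against 24.8, 26.2 and 12.1 FPKM in control libraries, with 7 of 8 tested and all 7 above 0. The macrophage sums did not overlap between the groups, and the B cell sums overlapped through Fth1-deleted 2. Neutrophil and myeloid markers (8 of 10 tested, 6 above 0, median log2 difference 1.87, smallest limma adjusted p = 0.0803) summed to 291 to 686 FPKM in Fth1-deleted libraries and to 283 to 563 FPKM in control libraries. Erythroid markers (7 of 8 tested, 6 above 0) summed to 112 to 448 FPKM in Fth1-deleted libraries and to 54.3 to 331 FPKM in control libraries. Megakaryocyte markers (5 of 6 tested, 3 above 0) summed to 912 to 1095 FPKM in Fth1-deleted libraries and to 608 to 914 FPKM in control libraries. The sums of mast cell markers (3 of 6 tested) were 16 to 44.4 FPKM in Fth1-deleted libraries and 0 to 12.9 FPKM in control libraries, and those of T cell markers (2 of 6 tested) reached 24.3 FPKM in Fth1-deleted libraries and 8.95 FPKM in control libraries. Single markers of these lists were at 0 in every library (Ly6g of neutrophils, Marco of macrophages, Cd3e of T cells, Gp1bb of megakaryocytes and Mcpt8 of basophils), while other markers of the same lists were detected. No gene of these lists passed the threshold, and their part in the synthetase values was not tested.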

How the data were processed

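The 7 libraries hold polyA RNA of 4 Fth1-deleted and 3 control HSC samples. Per the series text, the authors aligned paired-end reads to GRCm38 with HISAT2 2.0.4, counted them per gene with HTSeq 0.9.1 and calculated the deposited FPKM values from gene length and counted reads. The annotation, strand setting and treatment of multiply mapped reads are not given in the sources used here.

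Of 55855 gene identifiers, 55480 were matched to GENCODE M21. Reads were recovered from the steps of FPKM times mean transcript length. Of the values under 50 reads, 98.9% to 99.5% were whole within 0.05, and 1 read on a 1 kb gene equals 0.0647 to 0.0829 FPKM. Genes with a mean of at least 1 FPKM entered limma 3.58.1 under R 4.3.3 (limma-trend on log2(FPKM + 1), pseudocount 1, group as the only term, two-sided), with Benjamini-Hochberg adjustment over all 13948. Single measures of the libraries were compared by exact permutation over 35 splits. The procedure was tested on simulated data. Intervals cover 95% and limma's model only. Shared transcript sequence was found with BLAST at 98% identity or more over at least 60 bases.

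The enzymes and the lists of related genes were chosen with earlier results of these data known. Values per library are given for enzymes with an unadjusted p under 0.05, the 3 per class with the largest difference, the 3 with the highest mean, and Gars and Kars. Rars was added after its values were seen, as were Hars, Farsa, Farsb and Nars2. Of the lists, chosen genes and some of those with the smallest p are named. The HSC marker that passed the test is not reported here by name. Alternatives were another pseudocount, filter or scaling, limma-voom on recovered reads, library weights, covariates, a replicate block and each library left out.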

Additional observations from a re-analysis of the deposited data

Results flagged for a closer look

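Nars2, the mitochondrial asparagine enzyme, had 3.34 FPKM in Fth1-deleted 2, while the other Fth1-deleted libraries had 7.78 to 8.16 FPKM and the control libraries 5.43 to 13.5 FPKM. The gap to the nearest Fth1-deleted library was 0.921 of the range of the 4, beyond the limit of Dixon's test. Of 36 genes this 1 was so marked, and chance marks about 1 in 20 such groups.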

How the results depend on the processing

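Of all genes tested, 8 passed the threshold. That count was 0 without the filter (1504 at an unadjusted p under 0.05), 17 with a term for Y-linked reads, 5 with limma-voom on recovered reads, 234 among the 5 libraries rich in ribosomal RNA (46 higher, 188 lower) and 0 to 19 with each library left out. The 0 came without control 3 (1335 at an unadjusted p under 0.05), the 19 without control 1, 13 without control 2 and 1 without Fth1-deleted 3. The 5-library setting was chosen after seeing the data, and its lone control is assumed to vary like the others. No synthetase passed under any setting except Lars2 without control 2, so that the count ran over 0 to 1 with each library left out. With an unadjusted p under 0.05, 5 synthetases became 8 with the Y-linked term and 4 to 7 with each library left out. The count over all 13948 genes tested rose as well, from 1371 to 1670 with the Y-linked term. It was 996 to 1626 with each library left out, highest without control 1. The cytosolic median stayed above 0 under every alternative run and was 0.08 to 0.27 with each library left out. The mitochondrial median was -0.083 with the ribosomal RNA covariate, -0.027 in the 5 libraries and 0.07 to 0.28 with each library left out. Cytosolic minus mitochondrial median, 0.01 in the reported fit, was 0.41 with the covariate, 0.34 in the 5 libraries and -0.20 to 0.13 with each library left out. Of the enzymes recomputed one by one, 3 changed sign. Vars was -0.092 after quantile normalization and -0.049 after TPM rescaling (-0.032 to 0.10 with each library left out). Qars was 0.013 in the 5 libraries (-0.14 to 0.034). Cars2 was -0.43 with the covariate, -0.12 with the Y-linked term and -0.30 in the 5 libraries (-0.31 to 0.32). The cause was not tested. With a replicate block, in which Fth1-deleted 4 has no partner, 0 genes passed (987 at an unadjusted p under 0.05), 4 synthetases had an unadjusted p under 0.05 and Vars was -0.0017. Same-numbered libraries correlated at 0.0090, 0.061 and -0.037 in their deviations from group means. Fth1-deleted 1 and 2 were closest to the control of their own number, and Fth1-deleted 3 was not. Values this near 0 cannot tell whether the numbers pair the samples. Counts of 27 reads for the lowest mitochondrial values limit those genes.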
